A study of Homo sapiens with 8 samples.

Results

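Zinc finger genes of chromosome 19 whose symbols start with ZNF were examined for the openness of their chromatin before and after hyperosmotic stress. Peaks of open chromatin were taken as members when they overlapped the body of such a RefSeq protein-coding gene or the 1 kb on either side of it. This rule found 262 peaks among the 3321 peaks of chromosome 19 and the 129536 peaks of the whole table. Of these, 186 overlapped a window reaching 1 kb to each side of a gene's start or far end and are called gene-end peaks, and 76 lay elsewhere inside a gene. Chromosome 19 held 250 of these genes in RefSeq, of which 180 had a gene-end peak, 45 had a peak inside, and 47 had no peak at all. The 250 include readthrough entries that join neighbouring genes, such as ZNF559-ZNF177, and the entry ZNF470-DT.

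The cells were HEK293, a human embryonic kidney line, and the genotype label of all 8 samples was eGFP-YAP, a fusion of a fluorescent protein to the transcriptional co-activator YAP. The library names of the same samples carry wt instead, and the genotype field and series design were followed. All cultures were serum-starved for 1 h according to the series design. Chromatin was then profiled by ATAC-seq, in which a transposase cuts and tags accessible DNA, in 4 vehicle libraries and in 4 libraries from cells given 200 mM sorbitol for 1 h. The library names mark the vehicle libraries as 0 h, although the treatment protocol has controls collected in parallel, so time and treatment cannot be told apart here. Sorbitol draws water out of cells, and the comparison asks which regions gain or lose accessibility under that stress.

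Most ZNF genes encode proteins with tandem C2H2 zinc fingers that read DNA sequence, and many carry a KRAB domain. The KRAB domain recruits TRIM28 (also called KAP1), which brings in the histone methyltransferase SETDB1 and HP1 proteins and so deposits repressive chromatin, largely over retroelements. The genes of chromosome 19 stand in tandem clusters that grew by duplication, so neighbours share sequence in their promoters as well as in their coding exons.

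Library totals ran from 11522266 to 19831471 counts in peaks, and each vehicle library was deeper than each sorbitol library. Levels are given as CPM, the usual library-scaled count unit, with library totals adjusted by TMM factors, and changes as log2 fold changes of sorbitol over vehicle from edgeR's quasi-likelihood test. A peak is said to have fallen or risen where the Benjamini-Hochberg adjusted p over all 129487 tested peaks was under 0.05. The labels do not say whether the libraries came from separate cultures, so the p-values measure the spread between these libraries. The library names carry a first number that libraries 1 and 2 of a group share, as do libraries 3 and 4, with no stated meaning, so the 4 libraries may stand for 2 sources. With the libraries that share it summed, the same test with 2 sums per group again called 168 ZNF gene-end peaks lower. Peaks were present at the HEK293 genes LHX1 (14.9 CPM), NEFL (29.6 CPM at its stronger peak) and NEFM but not at PAX2. None was found at the ends of CD3E, ALB or INS, and PTPRC and PECAM1 each had 1 peak of about 1 CPM.

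Chromatin at the ends of chromosome 19 ZNF genes closed across nearly the whole set after sorbitol. Of the 186 gene-end peaks, 168 (90.3%) fell and 0 rose, against 13.1% of all tested peaks that fell and 16% that rose. The median log2 fold change was -0.79, which leaves 57.7% of the vehicle level, and the quartiles were -0.98 and -0.64. The median over all tested peaks was 0.01. A fall of at least 2-fold was measured at 45 gene-end peaks (24.2%), against 0.881% of all tested peaks. The 4 sorbitol libraries all lay below, or all above, the 4 vehicle libraries at 90.9% of the ZNF gene-end peaks and at 26.3% of all tested peaks. At an unadjusted p under 0.05, edgeR and DESeq2 each also found 0 ZNF gene-end peaks higher, and 2 of the 186 had a positive value.

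The fall was present in each library. The median deviation of ZNF gene-end peaks from their own mean over the 8 libraries, on the log2 scale, was 0.45, 0.48, 0.38 and 0.31 in vehicle libraries 1 to 4. It was -0.38, -0.37, -0.39 and -0.39 in sorbitol libraries 1 to 4. The groups did not overlap, and the spread among sorbitol libraries (SD 0.011, n = 4) was smaller than among vehicle libraries (SD 0.076, n = 4). ZNF gene-end peaks took 9.39%, 9.45%, 9.87% and 9.38% of the counts of chromosome 19 in the vehicle libraries. In the sorbitol libraries they took 7.62%, 7.77%, 7.85% and 7.96%. This share does not depend on how libraries are scaled to each other, and its groups did not overlap either. The share of ZNF inside peaks was also lower without overlap (1.88% to 1.99% in vehicle, 1.69% to 1.80% in sorbitol). That of other gene-end peaks overlapped (48.9% to 49.7% and 48.3% to 49.4%). The shares of peaks inside other genes (24.9% to 25.4% and 26.2% to 27.0%) and outside protein-coding genes (14% to 14.3% and 14.6% to 15.2%) were higher with sorbitol, without overlap.

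**Figure D1:**
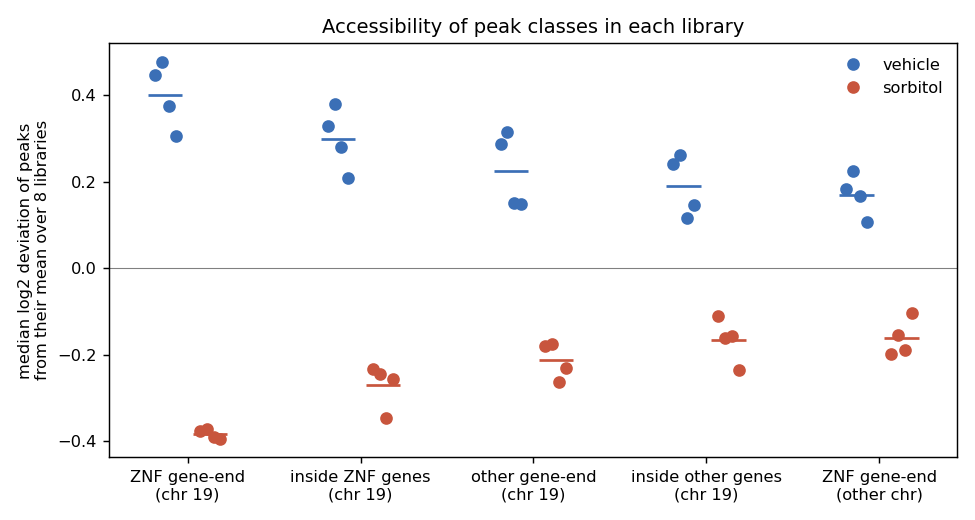
Median log2 deviation of each peak class from the peaks' means over the 8 libraries (vertical axis) for 5 classes (horizontal axis). Points are libraries and lines are group means over 4 libraries. In all 5 classes the vehicle points lie above the sorbitol points, and the gap is widest for ZNF gene-end peaks of chromosome 19, between 0.31 at the lowest vehicle library and -0.37 at the highest sorbitol library.

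Chromosome 19 as a whole lost accessibility in the same comparison, and the ZNF gene ends lay below it. Over all 3318 tested peaks of the chromosome, 1625 fell and 113 rose, with a median of -0.45. The 987 gene-end peaks of the other protein-coding genes had a median of -0.47, with 608 (61.6%) lower, 31 higher and 2.63% lower by at least 2-fold. The medians of ZNF and other gene-end peaks thus differed by -0.33, and this difference stayed between -0.37 and -0.30 under every alternative scaling, filter, margin and left-out library tried. The peaks inside other genes (1218, median -0.41) and outside protein-coding genes (852, median -0.40) were close to that chromosome-wide level. Members of a set share neighbourhoods and sequence, so these counts are descriptions of the sets and carry no p-value.

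Peak strength differs between the classes, so the peaks were also set side by side within 10 classes of mean CPM that each hold an equal number of tested peaks. In the class from 8.57 to 18.8 CPM, 81 of 82 ZNF gene-end peaks fell with a median of -0.85, and 177 of 253 other chromosome 19 gene-end peaks fell with a median of -0.45. In the strongest class, 49 of 49 ZNF peaks fell with a median of -0.71, and 281 of 299 other peaks fell with a median of -0.58. In the class from 5.52 to 8.57 CPM the medians were -0.81 (21 peaks) and -0.36 (115 peaks). The ZNF median was the lower in each of the 10 classes, although the first 7 of them held 2 to 9 ZNF gene-end peaks each. The gap was narrowest among the strongest peaks.

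**Figure D2:**
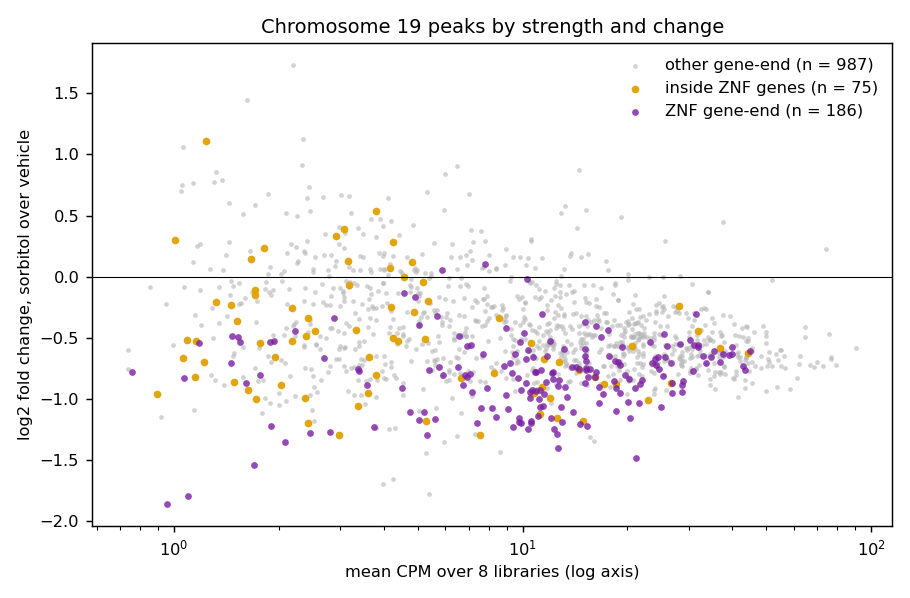
Log2 fold change of sorbitol over vehicle (vertical axis) against mean CPM over 8 libraries (horizontal axis, log scale) for single peaks of chromosome 19. Of the 186 ZNF gene-end points, 184 lie below 0, as do most of the 987 other gene-end points, and ZNF gene-end points lie deeper at matched strength.

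The gene-end peaks with the smallest p-values stood at the starts of ZNF724, ZNF493, ZNF708 and ZNF100, all within one cluster, and of ZNF226, ZNF432, ZNF383 and ZNF566 elsewhere on the chromosome. At the ZNF724 start (chr19:23249925-23250701) the vehicle libraries had 34.0, 30.2, 33 and 28.0 CPM and the sorbitol libraries 11.1, 12.0, 10.6 and 10.9 CPM. The log2 fold change was -1.49 (SE 0.10, edgeR adjusted p = 3.25e-17), and the highest sorbitol library was far below the lowest vehicle library. At the ZNF493 start (chr19:21396782-21397565) the values were 19.1, 20.3, 15.6 and 18.7 CPM with vehicle and 6.08, 6.84, 7.20 and 7.56 CPM with sorbitol. This is a log2 fold change of -1.40 (SE 0.12, edgeR adjusted p = 2.63e-13), again with no overlap. Both genes lie in the cluster from ZNF101 to ZNF254, which expanded in primates.

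At the ZNF708 start (chr19:21328736-21329666) the level went from 28.2 ± 2.40 to 12.6 ± 1.03 CPM (mean ± SD, n = 4 in each group here and below). The ZNF100 start (chr19:21766929-21767848) went from 20.4 ± 1.68 to 8.84 ± 1.18 CPM. The log2 fold changes were -1.16 and -1.21, and no sorbitol library reached the lowest vehicle library at either gene. The ZNF226 start (chr19:44164550-44165336) went from 33.7 ± 3.37 to 16.1 ± 0.552 CPM and the ZNF432 start (chr19:52048432-52049549) from 17.9 ± 1.64 to 7.27 ± 0.475 CPM. The ZNF383 start (chr19:37217582-37218449) went from 29.0 ± 1.52 to 14.1 ± 1.33 CPM. At ZNF566 (chr19:36488954-36490158) the level went from 37.7 ± 3.40 to 19.6 ± 0.516 CPM, at a peak also within 1 kb of an end of ZNF566-AS1. These 4 peaks had log2 fold changes of -1.07, -1.29, -1.03 and -0.94, with edgeR adjusted p from 8.38e-13 to 9.25e-12 and separate groups of libraries.

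**Figure D3:**
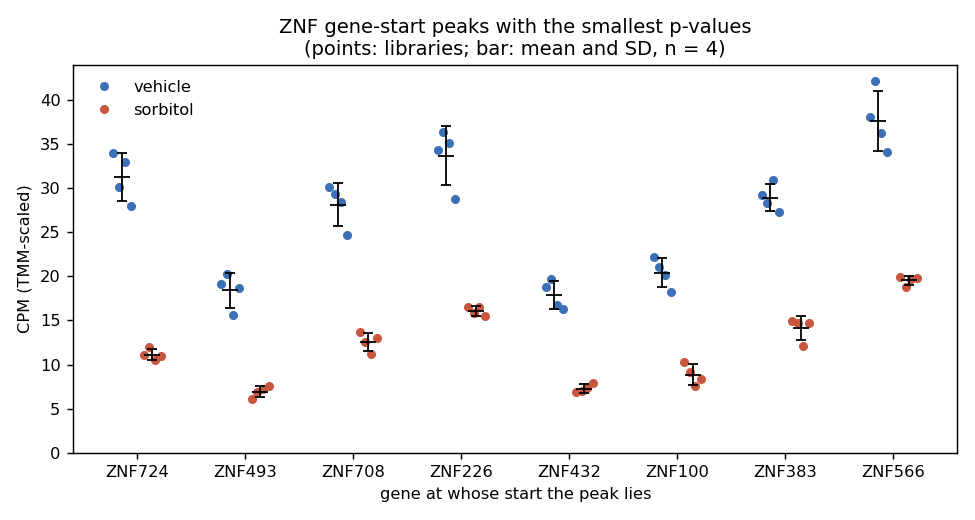
CPM in each library (points) at the 8 ZNF gene-start peaks with the smallest p-values (horizontal axis, gene), with mean and SD of 4 libraries per group. At each of the 8 peaks all sorbitol points lie under all vehicle points. The ZNF724 peak shows the largest drop relative to its vehicle level, from 31.3 to 11.1 CPM.

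Sequence upstream of these starts is shared within clusters, and the stretches below are shown for 4 of the gene-start peaks just described and for ZNF443, of a neighbouring cluster, because they hold the same letters. They come from the 250 bases before the RefSeq start sites (RefSeq, GRCh38.p14), are written 5′ to 3′ on the gene's own strand, and have the letters TCCAATCAG in capitals. These letters hold CCAAT, the core that the factor NF-Y is known to bind. They were picked after the windows had been looked at. The stretches lie at chr19:23250448-23250496 (ZNF724, minus strand), chr19:21397028-21397076 (ZNF493, plus), chr19:21329414-21329462 (ZNF708, minus), chr19:21767603-21767651 (ZNF100, minus) and chr19:12441115-12441163 (ZNF443, minus).
ZNF724: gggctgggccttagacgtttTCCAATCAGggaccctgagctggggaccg
ZNF493: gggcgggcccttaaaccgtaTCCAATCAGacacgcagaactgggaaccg
ZNF708: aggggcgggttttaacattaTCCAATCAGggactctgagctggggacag
ZNF100: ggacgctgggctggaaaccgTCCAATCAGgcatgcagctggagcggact
ZNF443: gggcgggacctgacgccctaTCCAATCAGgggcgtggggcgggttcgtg

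TCCAATCAG, searched on both strands of the 300-base promoter windows (250 bases before and 50 after a start), was present in all 16 windows under a tested peak in the cluster from ZNF101 to ZNF254. It was present in 14 of 20 windows in the cluster from ZNF653 to ZNF791 and in 0 windows of the other 6 clusters. Together 33 of 203 ZNF windows of chromosome 19 (16.3%) held it, against 0.269% of 743 windows of other chromosome 19 genes and 0.892% of all 22198 promoter windows. Peaks at ZNF windows with the letters had a median of -0.76 and those without had -0.84. The letters were found in only some clusters, so they cannot be told apart from cluster membership here. A link of the letters to the fall was not tested. On other chromosomes, 13 of 236 ZNF windows held it, with a median of -0.69 against -0.31 for the rest. A match is a run of letters and not a shown binding site.

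Another shared element was ACTACA, any base and then TTCCCA, which is the core of the sequence that the factor ZNF143 is known to bind, also picked after the windows had been viewed. It was in 29 of 203 ZNF windows (14.3%), in 1.62% of the windows of other chromosome 19 genes and in 0.869% of all promoters. It was most frequent in the cluster from ZNF575 to ZNF180 (11 of 19 windows) and that from ZNF565 to ZNF573 (12 of 40), and in 0 windows of both clusters that carried TCCAATCAG. The medians with and without it were -0.81 and -0.83. The stretches below, with the element in capitals, come from 3 genes that hold it. They have the deepest falls among such genes whose peaks are described elsewhere in this text. A peak shared by ZNF829 and ZNF568 also holds it and had -1.20, deeper than ZNF790 and ZNF225. The stretches shown lie at chr19:36838418-36838470 (ZNF790, printed on the minus strand, the gene's own), chr19:44113228-44113280 (ZNF225, printed on the minus strand, opposite to the gene) and chr19:53520868-53520920 (ZNF331, plus strand, the gene's own).
ZNF790: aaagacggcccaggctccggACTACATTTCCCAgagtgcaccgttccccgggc
ZNF225: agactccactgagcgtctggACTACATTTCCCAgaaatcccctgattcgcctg
ZNF331: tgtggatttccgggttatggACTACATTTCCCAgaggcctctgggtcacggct

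The letters CCGGAAG, a core bound by ETS factors, were in 43.3% of the ZNF windows under a tested peak. They were in 18.8% of other chromosome 19 windows under a peak and in 12.8% of all promoters. With windows under no tested peak counted too, the ZNF and other chromosome 19 shares were 41.0% and 13.2%. The ZNF shares that follow are also for windows under a peak unless stated. The median at ZNF windows with CCGGAAG was -0.92 and without it -0.74. Its share differed between clusters, from 2 of 20 windows (ZNF653 to ZNF791) to 12 of 16 (ZNF101 to ZNF254). The difference in medians thus cannot be told apart from cluster membership, and it was not tested. Other chromosome 19 windows had -0.62 with these letters and -0.47 without. Under a peak, GGGCGG, the core bound by SP factors, was in 66.0% of ZNF windows and 81.0% of other chromosome 19 windows. With windows under no tested peak counted too, these shares were nearly equal (64.9% and 65.9%), with 56.3% over all promoters. TGACTCA, the site of AP-1 (2.46% of ZNF windows, 4.01% of all promoters), and CACGTG, the E-box (3.45% and 8.34%), were infrequent. CCAAT, which lies within TCCAATCAG, was in 47.3% of ZNF windows and 34.7% of all promoters, with medians of -0.81 with it and -0.83 without. TGACGTCA, the site of CREB and ATF factors, was in 4.93% of ZNF windows and 2.26% of all promoters. The NRF1 motif was in 2.46% of ZNF windows and the YY1 motif in 0.985%, against 1.5% and 1.18% of all promoters. Other chromosome 19 windows under a peak held TGACGTCA in 4.31%, the NRF1 motif in 3.36% and the YY1 motif in 3.63%. They held TGACTCA in 1.62%, CACGTG in 10.1% and CCAAT in 39.2%.

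The ZNF promoter windows were also poorer in G and C than those of the other genes of the chromosome. The median GC content was 61.0% over 203 ZNF windows of 175 genes and 67.0% over 743 windows of 596 other genes, and the CpG observed-to-expected ratio was 0.782 and 0.847. Lower GC went with a deeper fall across windows in both sets (Spearman's rho of GC content with log2 fold change 0.24 and 0.28, across windows that share genes and libraries). Within every bin of GC content the ZNF median was still the lower. At or below 55% GC it was -0.98 (26 windows) against -0.59 (48 windows), from 60% to 65% it was -0.77 (62) against -0.52 (149), and above 70% it was -0.67 (11) against -0.40 (255).

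**Figure D4:**
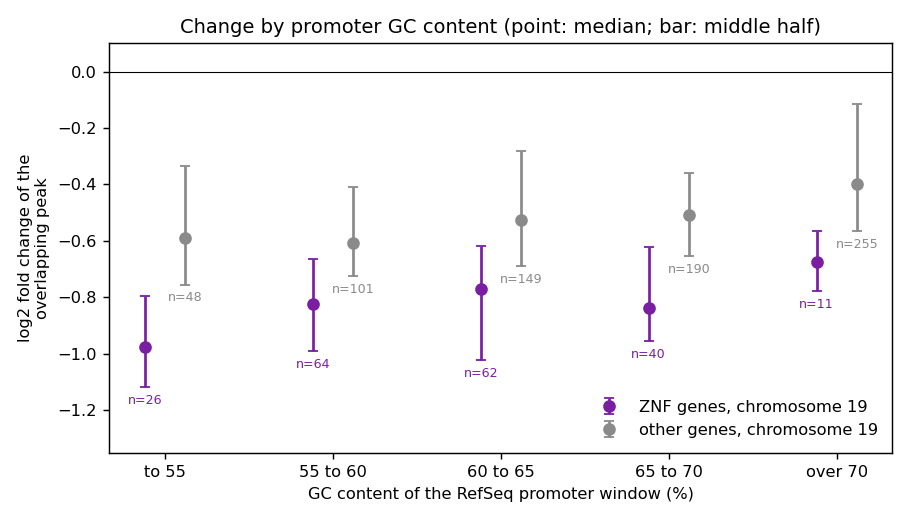
Median log2 fold change of the peak over a RefSeq promoter window (vertical axis) by the GC content of the window (horizontal axis, bins in percent) for ZNF genes and other genes of chromosome 19. Bars span the quartiles of the windows. The ZNF median lies below that of the other genes in each of the 5 bins.

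The fall reached all 8 clusters. A cluster was taken as at least 10 ZNF genes with gaps under 500 kb, which placed 226 of the 250 genes. The deepest median, -0.95, belonged to the cluster from ZNF175 to ZNF331 (chr19:51571283-53580269), where 25 of 29 gene-end peaks fell and 48.3% fell by at least 2-fold. The cluster from ZNF565 to ZNF573 (chr19:36182060-37779586) followed with -0.91 and 17 of 17 peaks lower. The cluster from ZNF101 to ZNF254 (chr19:19668153-24129968) had -0.87 and 18 of 19, and that from ZNF264 to ZNF446 (chr19:57191500-58489533) had -0.84 and 32 of 33.

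Shallower medians were seen in the remaining clusters. They were -0.80 from ZNF575 to ZNF180 (18 of 19 lower), -0.74 from ZNF414 to ZNF846 (10 of 10), -0.70 from ZNF653 to ZNF791 (15 of 18) and -0.67 from ZNF628 to ZNF835 (17 of 18). The ranges of the clusters overlapped each other, and no test of one cluster against another was made. The gene-end peaks with the smallest p-value in clusters not yet represented were at ZNF559 and its readthrough ZNF559-ZNF177 (chr19:9323600-9324611, -1.18), ZNF443 (chr19:12440297-12441464, -0.86), ZNF582 (chr19:56393116-56393904, -1.25) and ZNF304 (chr19:57350911-57351586, -1.16). At ZNF304 the level went from 16.7 ± 0.402 to 7.43 ± 0.495 CPM (n = 4 each, edgeR adjusted p = 3.5e-11). The ZNF582 peak also lies within 1 kb of an end of the divergent transcript ZNF582-DT.

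**Figure D5:**
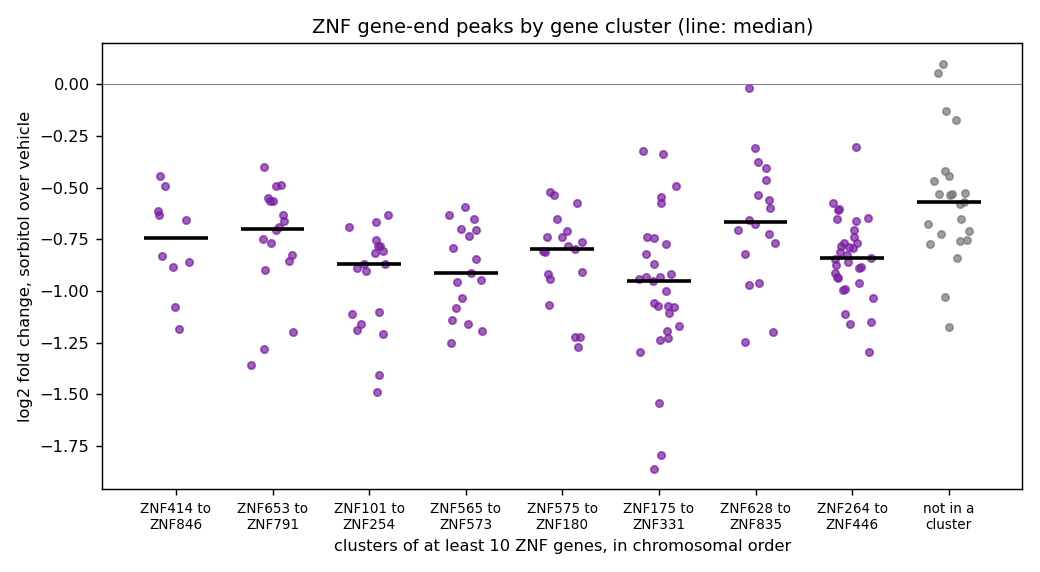
Log2 fold change of each ZNF gene-end peak (vertical axis) by cluster in chromosomal order (horizontal axis), with the median as a line. In the 8 clusters every point is below 0. The 2 points above 0 are among the 23 peaks of genes outside clusters.

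Genes outside the clusters moved less. Their 23 gene-end peaks had a median of -0.57 with 16 lower, against -0.82 and 152 of 163 in the clusters. Gene-end peaks of other protein-coding genes that lie within the clusters numbered 29, and 20 of these fell with a median of -0.56. The 958 outside the clusters had -0.46. Among the 29 were peaks at zinc finger genes with other symbols, ZFP14 (-0.89), ZFP30 (-0.56) and ZSCAN22 (-0.82). These surroundings are thus not free of the gene family, and their median without such genes was not computed. The 87 peaks of the clusters outside protein-coding genes had a median of -0.59 with 36 lower, and the 765 elsewhere on the chromosome had -0.39. ZNF gene-end peaks therefore had a lower median than their immediate surroundings in the clusters, and those surroundings a lower one than the rest of the chromosome.

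ZNF genes on other chromosomes closed less. Their 283 gene-end peaks had a median of -0.33 with 159 lower and 10 higher, and 15184 gene-end peaks of other genes on those chromosomes had -0.19. The 11 clusters of at least 5 ZNF genes there all had negative medians, from -0.20 (ZNF786 to ZNF862, chromosome 7) to -0.83 (ZNF605 to ZNF268, chromosome 12). A median as deep as those on chromosome 19 was also found from ZNF205 to ZNF597 on chromosome 16 (-0.79, 8 of 9 lower) and from ZNF722 to ZNF92 on chromosome 7 (-0.78, 5 of 5). Together the clustered genes of other chromosomes had 59 of 74 peaks lower with a median of -0.49, and the rest had 100 of 209 with -0.27.

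Most ZNF gene-end peaks lay within 1 kb of a gene's start, though not all of them reach it. Strand was known for 219 of the 250 genes from the RefSeq promoter table. The 156 peaks at starts had a median of -0.80 with 142 lower, and the 8 at far ends alone had -0.54 with 5 lower. The far-end values spanned -1.54 at ZNF701 (2.51 to 0.88 CPM, chosen after its values were seen) to -0.02 at ZNF628. Both peaks also lie within 1 kb of ends of other genes, ZNF137P and LOC137778871 at ZNF701 and NAT14 at ZNF628. The 20 peaks at genes of unknown strand had -0.87 with 19 lower. A further 2 peaks, within 1 kb of both a start and a far end, had -0.63. One of these, between ZNF446 and ZNF324 (chr19:58475519-58476560), was the strongest gene-end peak. It went from 54.2 ± 3.62 to 35.6 ± 2.79 CPM (n = 4 each), a log2 fold change of -0.61 (edgeR adjusted p = 1.23e-07) with separate groups.

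Several peaks serve more than 1 gene, and their counts cannot be told apart by gene. Of the 186 gene-end peaks, 47 also lay within 1 kb of an end of a RefSeq gene other than the protein-coding ZNF genes. Those 47 had a median of -0.72 with 43 lower. The 139 without such a gene had -0.81 with 125 lower, and they include peaks shared only between ZNF genes. Only 12 were shared with a protein-coding gene that is not a ZNF gene (median -0.54, 9 lower). The 13 shared between ZNF entries had -0.82 with 12 lower. These include peaks of a gene and its own readthrough, at ZNF559, ZNF816 and ZNF765, and the peak of ZNF470 and ZNF470-DT. Reads from near-identical copies can be placed at either copy or lost, which makes counts at closely related members uncertain.

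The 18 gene-end peaks that did not pass were mostly weak. Their median level was 2.08 CPM, 17 of them were below 8.57 CPM, and 16 had a negative value. They lay at ZNF555, ZNF491, ZNF433, ZNF20, ZNF726, ZNF536 (2 peaks), ZNF507, ZNF792, ZNF574, ZNF285, ZNF296, ZNF836, ZNF83, ZNF28, ZNF765, ZNF628 and ZNF587B. The strongest of them (10.3 CPM) was at the far end of ZNF628, also within 1 kb of an end of NAT14. It had 9.11, 12.1, 10.0 and 10.3 CPM with vehicle and 8.83, 11.2, 10.7 and 10.2 CPM with sorbitol. The ZNF792 start had 7.48, 5.90, 7.53 and 9.24 CPM with vehicle and 7.58, 8.32, 8.87 and 7.49 CPM with sorbitol. The groups overlapped at both, with log2 fold changes of -0.02 (SE 0.12) and 0.10 (SE 0.14). Another gene-end peak fell at ZNF555 (-0.75), ZNF20 (-1.36), ZNF28 (-0.92), ZNF765 (-0.87), ZNF628 (-0.66), ZNF296 (-0.53) and ZNF507 (-0.42).

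Genes with well-known targets were among the members, chosen here for their function after their values were seen. ZNF274, whose protein binds the 3′ exons of ZNF genes and recruits SETDB1 there, had a start peak (chr19:58182685-58183944) of 24.6, 21.4, 19.2 and 24.0 CPM with vehicle and 10.9, 11.9, 10.3 and 10.3 CPM with sorbitol. Its groups did not overlap, and the log2 fold change was -1.04. ZNF91, which silences SVA retroelements, had a weak start peak (chr19:23395360-23395688) of 2.79, 2.17, 2.27 and 1.78 CPM with vehicle and 0.92, 1.09, 1.59 and 1.51 CPM with sorbitol (-0.81, edgeR adjusted p = 0.020). ZNF93, which binds LINE-1 elements, had a peak inside the gene of 2.11, 2.77, 2.37 and 1.30 CPM with vehicle and 1.42, 0.70, 1.17 and 1.24 CPM with sorbitol. Its groups overlapped, with a log2 fold change of -0.93 (edgeR adjusted p = 0.013). ZNF331, an imprinted gene, had one at -1.30 (chr19:53520685-53521158), with 3.94, 4.82, 4.13 and 4.11 CPM in vehicle and 1.08, 1.94, 1.76 and 2.06 CPM in sorbitol.

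Peaks inside ZNF genes also fell more often than they rose, with a less uniform change. Of 75 tested, 41 (54.7%) fell and 2 rose, with a median of -0.55, against 13.1% lower and 16% higher over all tested peaks. Inside the other genes of the chromosome, 507 of 1218 peaks (41.6%) fell and 53 rose. One ZNF inside peak was too weak to test. Many inside peaks overlap the promoter windows of further start sites. The 28 that overlapped another RefSeq promoter window of a ZNF gene had a median of -0.83 with 25 lower and 0 higher, at a median level of 12.3 CPM. The 47 without one had -0.49 with 16 lower and 2 higher, at 2.43 CPM. The count of inside peaks that fell was 27 when peaks of a mean under 50 counts were left out, with 42 inside peaks then tested.

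The 4 most significant of the inside peaks that fell (edgeR) were all of the first kind. They were at ZNF875 (chr19:37317512-37318151, -1.18), ZNF225 (chr19:44112943-44113699, -1.01, also an end of ZNF225-AS1), ZNF790 (chr19:36837873-36838896, -1.16) and ZNF799 (chr19:12400195-12401596, -0.87). At ZNF875 the libraries had 21.8, 22.6, 20.1 and 18.1 CPM with vehicle and 8.25, 10.5, 8.45 and 9.14 CPM with sorbitol. At ZNF790 they had 16.4, 18.7, 17.2 and 17.1 CPM with vehicle and 7.5, 8.40, 7.53 and 7.70 CPM with sorbitol. Neither peak's groups overlapped.

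The inside peaks that rose were both weak. At ZNF665 (chr19:53187687-53187908) the libraries had 0.95, 0.72, 0.77 and 0.68 CPM with vehicle and 1.67, 1.71, 1.00 and 2.34 CPM with sorbitol. The log2 fold change was 1.11 (SE 0.32, edgeR adjusted p = 0.00734), and the call was lost without sorbitol library 4 (edgeR adjusted p = 0.0612) and without both libraries numbered 4 (edgeR adjusted p = 0.0909). At ZNF536 (chr19:30229541-30229801) the values were 3.47, 3.13, 2.68 and 3.15 CPM with vehicle and 4.41, 5.75, 3.85 and 3.92 CPM with sorbitol. That log2 fold change was 0.53 (SE 0.19, edgeR adjusted p = 0.0272), and the call was lost under DESeq2 (adjusted p = 0.0577), at a threshold of 0.01, with edgeR and scaling factors from contig peaks (adjusted p = 0.240) and, with edgeR, without vehicle library 2, vehicle library 3 or sorbitol library 2 (adjusted p = 0.0504, 0.0918 and 0.163).

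ZNF536 stood apart from the other members. It encodes a zinc finger protein known as a repressor of neuronal differentiation, is long and lies outside the clusters. It held 23 of the 75 tested inside peaks, and no other gene held more than 2. Of those 23, 2 fell, 1 rose and 20 did not pass, with a median of -0.04, and 10 of the 11 inside peaks with a positive value were in this gene. The stronger of the 2 that fell (chr19:30227492-30228055, 8.53 CPM) overlapped a further RefSeq start window of ZNF536. It had a log2 fold change of -0.34 (SE 0.13, edgeR adjusted p = 0.0438) with separate groups of libraries. The ZNF536 start peak at chr19:30225146-30225609 had 5.92, 6.08, 5.21 and 5.95 CPM with vehicle and 5.66, 5.13, 6.19 and 6.94 CPM with sorbitol. The groups overlapped, with a log2 fold change of 0.05 (SE 0.15). Without ZNF536, the 52 remaining inside peaks had a median of -0.74, with 39 lower and 1 higher.

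The 250 bases before a RefSeq start of ZNF724 and of ZNF536 are shown for comparison (RefSeq, GRCh38.p14, each on the gene's own strand). The ZNF724 start had the gene-end peak that fell with the smallest p-value. The peak at this ZNF536 start did not change beyond its spread. Capitals mark CCAAT and CCGGAAG on either strand. ZNF724 is at chr19:23250395-23250644 (minus strand) and ZNF536 at chr19:30225342-30225591 (plus strand). ZNF724 has CCAAT at 2 positions and the reverse complement of CCGGAAG at 1, and the ZNF536 stretch holds neither run of letters. A further ZNF536 start (chr19:30227638-30227887) also holds neither, and the peak over it fell (-0.34). The starts of ZNF493, ZNF226 and ZNF100 also hold both, ZNF708 only CCAAT, and ZNF432 only CCGGAAG, in some of its windows. Those of ZNF383 and ZNF566, which fell (-1.03 and -0.94), hold neither. That of ZNF792, which did not pass, holds CCAAT. The pair is an example, and a link of these letters to the fall was not tested.
ZNF724: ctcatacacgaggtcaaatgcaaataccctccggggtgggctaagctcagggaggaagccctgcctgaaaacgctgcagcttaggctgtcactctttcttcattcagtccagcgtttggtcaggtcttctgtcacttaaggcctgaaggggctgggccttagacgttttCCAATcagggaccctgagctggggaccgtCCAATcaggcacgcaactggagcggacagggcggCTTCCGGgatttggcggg
ZNF536: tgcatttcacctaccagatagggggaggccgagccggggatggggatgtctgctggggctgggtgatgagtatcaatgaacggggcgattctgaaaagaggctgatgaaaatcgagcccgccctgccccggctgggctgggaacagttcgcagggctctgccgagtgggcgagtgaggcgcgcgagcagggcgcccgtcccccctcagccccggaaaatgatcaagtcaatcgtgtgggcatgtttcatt

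Genes for the partners of KRAB zinc finger proteins changed less at their ends. Of 24 listed cofactor and heterochromatin genes, 23 had gene-end peaks, 38 in all, of which 18 (47.4%) fell and 1 rose with a median of -0.30. Among gene-end peaks of other genes, 37.3% fell on other chromosomes and 61.6% on chromosome 19, so the share is near that background. The peak at TRIM28, the KRAB co-repressor, which lies on chromosome 19 itself, fell by 0.65 on the log2 scale (SE 0.09, edgeR adjusted p = 2.08e-07). SETDB1, which methylates histone H3 at lysine 9, had -0.47, and CBX1, an HP1 protein, had -0.48. DNMT1, the maintenance DNA methyltransferase, had -0.54, and EHMT2, another lysine 9 methyltransferase, had -0.61 at its stronger peak. The only one to rise was a peak at PPHLN1 (0.25), a subunit of the HUSH silencing complex. The 19 peaks that did not pass included all those of the histone deacetylase genes HDAC1 and HDAC2 (-0.11 and -0.13 at the strongest peak of each), all 4 at CHD4, both at ATRX and the 1 at SUV39H1 (-0.17).

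Other zinc finger genes of chromosome 19, with symbols such as ZFP, ZSCAN and ZBTB, held 8 gene-end peaks at 6 of 20 genes. Of these, 6 (75%) fell, 1 rose and the median was -0.59. Among gene-end peaks of chromosome 19 genes other than ZNF, 61.6% fell, and 13.1% of all tested peaks did. The share rests on 8 peaks, 3 of them at ZBTB7A, and its difference from the rest of the chromosome was not tested. Peaks at the KRAB zinc finger genes ZFP14 and ZFP30 had log2 fold changes of -0.89 and -0.56, and that at ZSCAN22 had -0.82. The peak that rose was at ZFP36 (0.58, SE 0.11, edgeR adjusted p = 8.33e-05), which encodes an RNA-binding protein with a different type of zinc finger.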

How the data were processed

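ATAC-seq libraries were made from 50000 cells each by the Omni-ATAC protocol and sequenced as 75 bp pairs, per the labels' protocols. The deposited table holds raw counts for 129536 peaks in 8 libraries. The submitters' processing notes name hg38, Trim Galore 0.6.10, BWA 0.7.17, SAMtools 1.22, Picard and MACS2 2.2.9.1. Whether reads or fragments were counted, and how peaks were merged, is not given in the sources used here. Coordinates are printed as the deposited table gives them.

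Counts were fitted with edgeR 4.0.16 (R 4.3.3; filterByExpr, trimmed-mean (TMM) scaling, quasi-likelihood test, treatment only) over all peaks, with Benjamini-Hochberg adjustment. The steps were tested on simulated data: of 200 peaks changed 2-fold among 129487, 189 were recovered (94.5%) with 11 false calls. The changed peaks were drawn only from those above the median level, so the share does not describe weaker peaks. They were also far fewer than the 29.1% of tested peaks called in the data. Levels are limited by counting error and by duplicate PCR reads. Genes and promoter windows came from RefSeq tables (GRCh38.p14), without a genome sequence or protein table.

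The 19 peaks named by rule had to pass an adjusted p of 0.05 with separate groups of libraries. They are the 8 lower gene-end, 4 lower inside and up to 8 higher inside peaks with the smallest p-values, the strongest gene-end peak, the smallest p-value in each cluster and the gene with the most inside peaks. Others were described outside this rule, such as peaks that did not pass, far-end extremes, the ZNF536 start and genes chosen for function or from lists. One listed marker gene is not reported here. Members and lists were chosen with earlier results of these data known. Alternatives were other scalings, filters, thresholds, margins, DESeq2 1.42.0, a replicate block and left-out libraries.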

Additional observations from a re-analysis of the deposited data

Results flagged for a closer look

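In 3 of 50 groups of 4 libraries tested, 1 library lay far from the other 3 relative to the group's range (Dixon's test), where chance gives about 2.5. At the ZNF383 start, sorbitol library 3 had 12.1 CPM and the other 3 had 14.7 to 14.9 CPM. At the ZNF566 start, sorbitol library 2 had 18.8 CPM and the others 19.8 to 19.9 CPM. At the peak inside ZNF799, vehicle library 4 had 32.3 CPM and the others 35.0 to 35.6 CPM. Each of these libraries remained on its own group's side of the other group.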

How the results depend on the processing

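The number of ZNF gene-end peaks that fell was 139 with scaling factors from peaks on unplaced and unlocalized contigs and 157 to 172 under the other settings that kept the 1 kb margin and all 186 or the stronger 165 peaks, and 0 rose under any setting run. Library totals alone gave medians of -0.71 (ZNF gene-end), -0.47 (inside) and -0.39 (other gene-end). A loess offset gave -0.72 and -0.37 for ZNF and other gene ends. Contig factors gave -0.86 and -0.63 for ZNF gene ends and inside peaks, with 1 inside peak higher. Factors from gene-boundary peaks gave -0.62, -0.37 and -0.29, with 4 inside peaks higher, and moved the median of all peaks to 0.19. All tested peaks were then 6.70% lower and 26.3% higher, 9.77% and 20.2% with library totals, and 3.92% and 6.81% with contig factors. One inside peak was higher with DESeq2's Wald test, at a threshold of 0.01, with a mean of at least 50 counts (27 inside peaks lower, ZNF gene-end median -0.70), without both libraries numbered 4 (inside median -0.61) and without ZNF536 (-0.74), the last chosen after seeing the data. Leaving out 1 library gave 164 to 168 gene-end peaks lower and 0 higher, 34 to 41 inside peaks lower and 1 to 2 higher. The medians then ranged from -0.83 to -0.77 (ZNF gene-end), -0.63 to -0.55 (inside) and -0.50 to -0.43 (other gene-end), and the difference from -0.37 to -0.30. With a replicate block, 167 gene-end peaks fell, all shared with the fit without it, and 38 inside peaks fell. Libraries with the same number did not deviate together (correlations 7.3e-05, 0.00647, -0.0309 and -0.132), so the block stands for no known pairing. Of 379 values of the 19 named peaks, 371 kept direction and call, 8 kept direction only and 0 reversed. The 8 were all at the ZNF536 and ZNF665 peaks that rose.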
